A study of Mus musculus with 6 samples.

Results

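The endothelin and angiotensin systems were followed through 10 genes: the endothelin ligands Edn1 and Edn3, the converting enzyme Ece1, the endothelin receptors Ednra and Ednrb, the angiotensin precursor Agt, the converting enzyme Ace, and the angiotensin receptors Agtr1a, Agtr1b and Agtr2. They were chosen by symbol, as the ligands, enzymes and receptors of both systems, from the 55341 genes of the count table. No rule on their values was used, but earlier results of these data were known when they were chosen. All 10 were in the table, and 9 passed the filter on low counts (over 1 CPM, the counts scaled to library size, in at least 2 libraries). Agtr2 did not pass. RNA was sequenced from the aortas of 3 miRNA-26b-/- mice, in which the microRNA gene is deleted in the germline, and 3 miRNA-26b+/+ mice, all 8 weeks of age, of the C57BL/6NCrl strain by the labels and on chow diet. The line came from 129/Sv-derived embryonic stem cells; the miRNA-26b hairpin, which lies in an intron of Ctdsp1, was removed between loxP sites with a tamoxifen-activated Cre, and the Cre transgene was then bred out. Libraries are called by genotype and replicate number, which pairs no mice.

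The labels name aortic endothelial cells, whereas the methods describe explanted aortic arch and thoracic aorta. The 10 smooth muscle markers summed to 33011 to 44142 CPM and the 10 endothelial markers to 571 to 1905 CPM, so the libraries hold RNA of the vessel wall. In such bulk RNA, fewer cells of a type and less RNA per cell cannot be told apart. The libraries held 25706728 to 33345037 counts, and 3 counts corresponded to between 0.0900 and 0.117 CPM. Mir26b itself, the targeted gene, cannot check the genotypes in long-RNA libraries: 20 reads in miRNA-26b+/+ replicate 2 were all it received. MiRNA-26b-/- replicate 3 stood apart from its group in the endothelial marker sum, at 1905 CPM against 571 and 661 CPM in replicates 1 and 2. It was also the highest of its group in the sum of 8 macrophage markers, at 942 CPM against 329 and 403 CPM. The same held for 10 adventitial fibroblast markers, at 13226 CPM against 7604 and 8627 CPM. Values without this replicate are given beside the results that rest on it.

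Endothelins are short peptides cut from longer precursors. Edn1 is made mainly by endothelial cells, and its last cleavage is carried out by the membrane protease Ece1. Ednra on smooth muscle drives contraction, whereas Ednrb on endothelium releases dilators and clears the peptide. In the angiotensin system, renin cuts angiotensinogen, the product of Agt, and Ace, a protease on the endothelial surface, converts angiotensin I to angiotensin II. Mice carry a pair of type 1 receptor genes, Agtr1a and Agtr1b, that mediate contraction, and the type 2 receptor Agtr2 is largely a receptor of the fetus.

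The seed of the deleted microRNA was compared with the 3′ UTRs of the 10 genes. The mature sequences are shown since the seed (bases 2 to 8, in capitals) fixes which sites were searched, and since miR-26a, which the mice retain, has the same seed. Both come from RefSeq on GRCm38.p6.

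miR-26b-5p (chr1:74394324-74394344, plus strand): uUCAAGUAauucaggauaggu

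miR-26a-5p (chr9:119031811-119031832, plus strand): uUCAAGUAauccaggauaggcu

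The longest 3′ UTR among the coding transcripts of each gene was searched on the transcribed strand. Matches to seed bases 2 to 8 (TACTTGA) and to bases 2 to 7 followed by A (ACTTGAA) were sought. So were matches to both together (TACTTGAA, which contains the others). Of the 10 genes, 2 held a match, Ednra and Ace, each a single ACTTGAA. The full 8-base site and the TACTTGA site were in none of the 10. Over 21020 genes with a 3′ UTR, 18.3% held a 7-base or 8-base match. The windows around both matches are shown with the matching bases in capitals, read from GRCm38 on the strand of the gene.

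Ednra (chr8:77664722-77664751, minus strand): tcatttccaacACTTGAAaattagagctgg

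Ace (chr11:105989850-105989879, plus strand): tagggggtgtcACTTGAAgtaactttttat

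The match in Ednra lay at base 236 of a 3′ UTR of 1945 bases, and that in Ace at base 827 of 930. A match is a sequence description and not a measured binding site.

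Levels per exon length (RPKM, CPM per kilobase of exon) differed widely between the genes. Ace was the most abundant, at 147.5 RPKM on average over the 6 libraries (range 90.7 to 195), which ranked it 255th among the 16017 genes tested. Ece1 followed at 37.1 RPKM (18.7 to 51.6), and Edn1 at 11.9 RPKM (4.34 to 19.1). The enzymes that make the active peptides thus stood above all the receptors. Ednra had 2.45 RPKM, Ednrb 1.73, Agtr1b 1.45 and Agtr1a 1.13. Agt, which is made chiefly in liver and fat, had 0.542 RPKM, Edn3 0.259 and Agtr2 0.0678. Ace was above Ece1, and Edn1 above Ednra, in 6 of 6 libraries with ranges that did not overlap. Ece1 was above Edn1 in 6 of 6 libraries, although their ranges touched. From Ednra downward the neighbours in this order overlapped in range, and Ednra was above Ednrb in 5 of 6 libraries.

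**Figure D1:**
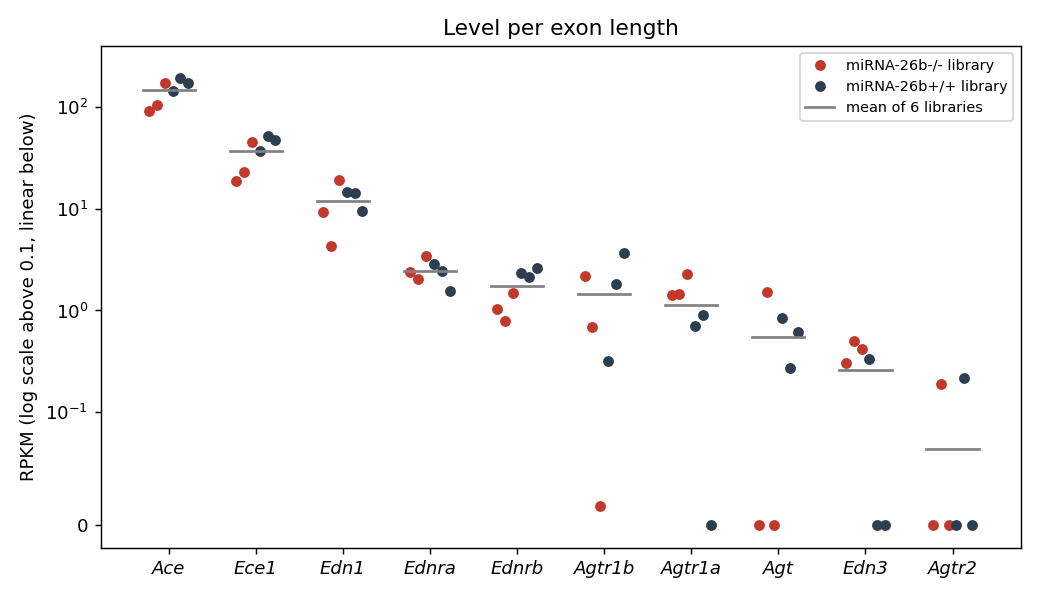
Level of each gene per exon length (RPKM, vertical axis, logarithmic above 0.1 and linear below) in the 3 miRNA-26b-/- (red) and 3 miRNA-26b+/+ (dark) libraries, with the mean of the 6 as a grey line. Ace, Ece1 and Edn1 lie above the receptors, and 4 genes have a library at 0.

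Differences between the genotypes were tested with edgeR's quasi-likelihood test over all genes, and log2 fold changes are miRNA-26b-/- minus miRNA-26b+/+. At an unadjusted p under 0.05, 4 of the 9 tested genes differed, against 6.47% of all 16017 genes tested. Of these 4, Ece1, Ednrb and Ace were lower in miRNA-26b-/- mice (3.07% of all genes tested) and Agtr1a was higher (3.40%). After Benjamini-Hochberg adjustment over all genes none of the 9 was called, the smallest adjusted p being 0.736, and 1 gene in the whole table was (0.00624%). The log2 fold change was below 0 for 6 genes and above 0 for 3, with a median of -0.26 beside 0.01 for all genes tested. The CPM of the groups did not overlap for 2 of the 9 genes, Ednrb and Agtr1a, as for 11.5% of all genes tested. With 3 mice against 3, the smallest p of an exact permutation test on any one gene is 0.1.

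The calls depended on single libraries. Without miRNA-26b-/- replicate 3, unadjusted p under 0.05 was reached by 4 of the 9 genes (Edn1, Ece1, Ednrb and Ace) and by 10.8% of 15654 genes, and adjusted p under 0.05 by 2 of the 9 (Ece1 and Ace) and by 0.524% of all. Without miRNA-26b-/- replicate 1 or miRNA-26b+/+ replicate 3, 0 of the 9 reached an unadjusted p under 0.05. Of all genes, 904 of 15698 and 686 of 15726 did. Without miRNA-26b-/- replicate 2 the count was 1, beside 898 of 15598 genes. Without miRNA-26b+/+ replicate 2 it was 2, beside 778 of 15663. Without miRNA-26b+/+ replicate 1 it was 3 (Edn3, Ece1 and Ace), beside 838 of 15701, and Edn3 then had no wild-type count left.

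**Figure D2:**
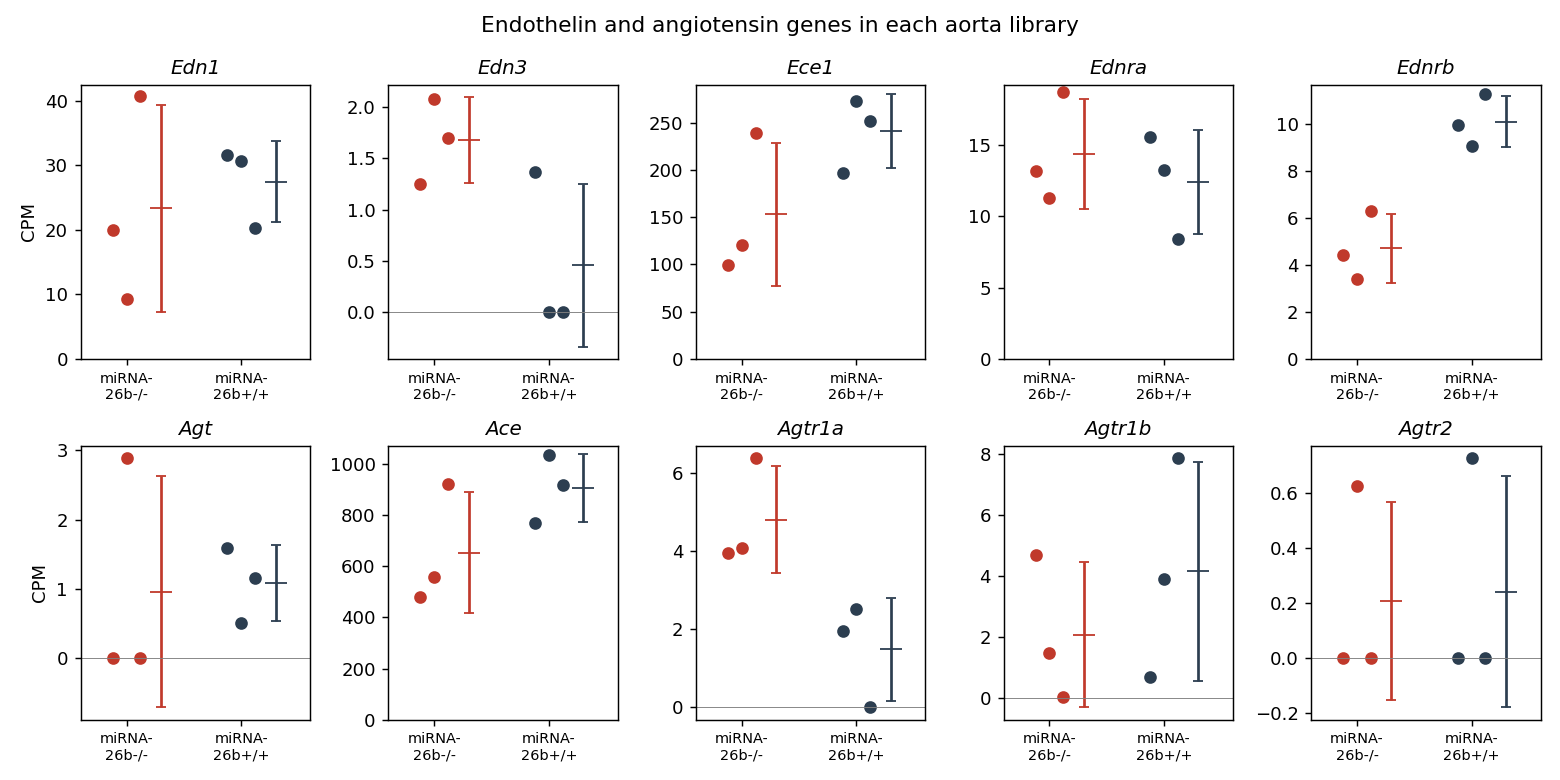
CPM of the 10 genes (vertical axes, a separate scale for each gene) in each library, with the mean and SD of each genotype beside the points. Ednrb is lower and Agtr1a higher in all 3 miRNA-26b-/- libraries than in any miRNA-26b+/+ library, and the ranges of the other genes overlap.

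Of the ligands, Edn1 (ENSMUSG00000021367, chr13:42301476-42307990 of GRCm38, plus strand, 5 exons) encodes the vasoconstrictor endothelin-1. Its level was 20.0, 9.28 and 40.8 CPM in the knockout and 31.5, 30.8 and 20.2 CPM in the wild type. The knockout libraries hold both the lowest and the highest value, and the groups overlap. Between genotypes it differed by -0.26 on the log2 scale (SE 0.40, edgeR unadjusted p = 0.523, adjusted p = 0.955). It was -0.96 (edgeR unadjusted p = 0.0157, adjusted p = 0.319) without miRNA-26b-/- replicate 3 and 0.16 without replicate 2.

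Reads over Edn1 were not counted by strand, and an antisense gene, Gm47118, lies opposite it. One of its 2 exons shares 35 coding bases with exon 3 of Edn1 (chr13:42304957-42304991), and a read that touches these bases was counted for both genes. The first 30 of them, on the Edn1 strand, are shown because the count of Gm47118 limits how many Edn1 reads lay there.

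Edn1 exon 3 (chr13:42304957-42304986, plus strand): cgtatggactgggaggttcttccaggtcca

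Gm47118 received 104, 133 and 80 reads in the wild type and none in any of the 3 knockout libraries. Under this counting rule, none of the 1977 Edn1 reads of the knockout touched the shared bases, whereas up to 317 of 2424 could have in the wild type. The 35 bases are 1.64% of the exon length of Edn1. Taken over the pooled libraries, Gm47118 was lower in the knockout by at least 104.6-fold, with 3 counts over the group as the floor, a bound that covers counting error only. Its unadjusted p was 0.00192 and its adjusted p 0.731 in edgeR's quasi-likelihood test. The adjusted p depended on the test. It was 0.000109 with DESeq2 and 0.00216 with edgeR's likelihood ratio test, but 0.869 with limma voom and 0.547 with edgeR's robust shrinkage. Subtracting its counts moved the log2 fold change of Edn1 to -0.06 (edgeR unadjusted p = 0.891). Whether the sequence of these bases in the knockout line, derived from 129/Sv cells, is that of the reference, which bears on how reads align there, was not tested, and the fold and the subtracted value hold only for reads as counted.

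Edn3 (ENSMUSG00000027524, chr2:174760619-174784042), the endothelin that is selective for Ednrb, was close to the filter on low counts, at a mean of 1.07 CPM. Its counts were 32, 70 and 48 in the knockout and 42, 0 and 0 in the wild type. It was thus counted in every knockout library and in 1 wild-type library, yet that library lies within the knockout range at 1.37 CPM. It differed by 1.84 on the log2 scale (SE 1.26, edgeR unadjusted p = 0.161, adjusted p = 0.857).

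Agt (ENSMUSG00000031980, chr8:124556534-124569706, minus strand) was counted 0, 97 and 0 times in the knockout and 49, 14 and 35 times in the wild type. The single knockout library with counts was the highest of all 6, at 2.89 CPM, and the fitted difference was near 0 (edgeR unadjusted p = 0.997). The same library, replicate 2, had the highest sum of 7 white adipocyte markers, 2736 CPM against 668 to 1850 CPM in the others, and their part in the Agt counts was not tested. None of the 7 adipocyte markers reached an unadjusted p under 0.05 between the groups in edgeR's test.

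Of the enzymes, Ece1 (ENSMUSG00000057530, chr4:137862237-137965229, plus strand, 20 exons in its longest transcript) had 99.0, 121 and 239 CPM in miRNA-26b-/- and 197, 273 and 251 CPM in miRNA-26b+/+ libraries. Replicates 1 and 2 of the knockout lie below every wild-type library, and replicate 3 lies within their range. The means were 153 ± 75.4 and 241 ± 39.1 CPM (SD, n = 3 each). Ece1 had a log2 fold change of -0.65 (SE 0.25, edgeR unadjusted p = 0.0215, adjusted p = 0.736). Without miRNA-26b-/- replicate 3 it was -1.12 (edgeR adjusted p = 0.00619), and without replicate 1 it was -0.43 (unadjusted p = 0.109). An unadjusted p under 0.05 was reached in 2 of the 6 fits that left out a library, and not with robust shrinkage (edgeR unadjusted p = 0.0955).

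Ace (ENSMUSG00000020681, chr11:105967945-105989964, plus strand, 25 exons) had 479, 558 and 922 CPM in miRNA-26b-/- and 768, 1034 and 919 CPM in miRNA-26b+/+ libraries. The pattern was that of Ece1, with the first 2 knockout libraries below the wild-type range and the third inside it. The means were 653 ± 236 and 907 ± 133 CPM (SD, n = 3 each), and the log2 fold change was -0.47 (SE 0.20, edgeR unadjusted p = 0.0335, adjusted p = 0.741). Without miRNA-26b-/- replicate 3 it was -0.80 (edgeR adjusted p = 0.0214), and without replicate 1 it was -0.30 (unadjusted p = 0.161). Leaving out a library kept an unadjusted p under 0.05 in 2 of 6 fits, and the likelihood ratio test (edgeR unadjusted p = 0.0589), robust shrinkage (edgeR unadjusted p = 0.0844) and the earlier quasi-likelihood method (edgeR unadjusted p = 0.0546) did not reach it. Ace also shares 295 exon bases with an antisense gene, Gm11651, whose counts were 7.80% to 14.0% of those of Ace per library. With these counts subtracted the log2 fold change was -0.46 (edgeR unadjusted p = 0.0322).

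Ace and Ece1 moved together over the libraries, with a Pearson r of 0.997 between their log2 CPM over 6 libraries that share depth and cell content with both genes. Both also moved with the endothelial markers, whose sum was 571, 661 and 1905 CPM in the miRNA-26b-/- and 1383, 1876 and 1651 CPM in the miRNA-26b+/+ libraries. None of the 10 endothelial markers was at 0 throughout. In the fit 9 of the 10 had a log2 fold change below 0. At an unadjusted p under 0.05, 2 of the 10 were lower, beside 3.07% of all genes tested. Per summed endothelial CPM, Ace stood at 0.839, 0.845 and 0.484 in the knockout and 0.556, 0.551 and 0.556 in the wild type. On that scale the knockout libraries lie on both sides of the wild type (exact permutation test, two-sided, p = 0.4). The ratio of Ece1 was 0.161 ± 0.0307 in the knockout and 0.147 ± 0.00490 in the wild type (SD, n = 3 each, exact permutation test, two-sided, p = 0.4). With the log2 endothelial sum as a covariate the log2 fold changes were -0.06 for Ace (edgeR unadjusted p = 0.683) and -0.13 for Ece1 (unadjusted p = 0.429). The macrophage markers summed to 329, 403 and 942 CPM in the knockout and 557, 610 and 642 CPM in the wild type. Sums of other cell types were not used as covariates, and their part in these values was not tested.

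**Figure D3:**
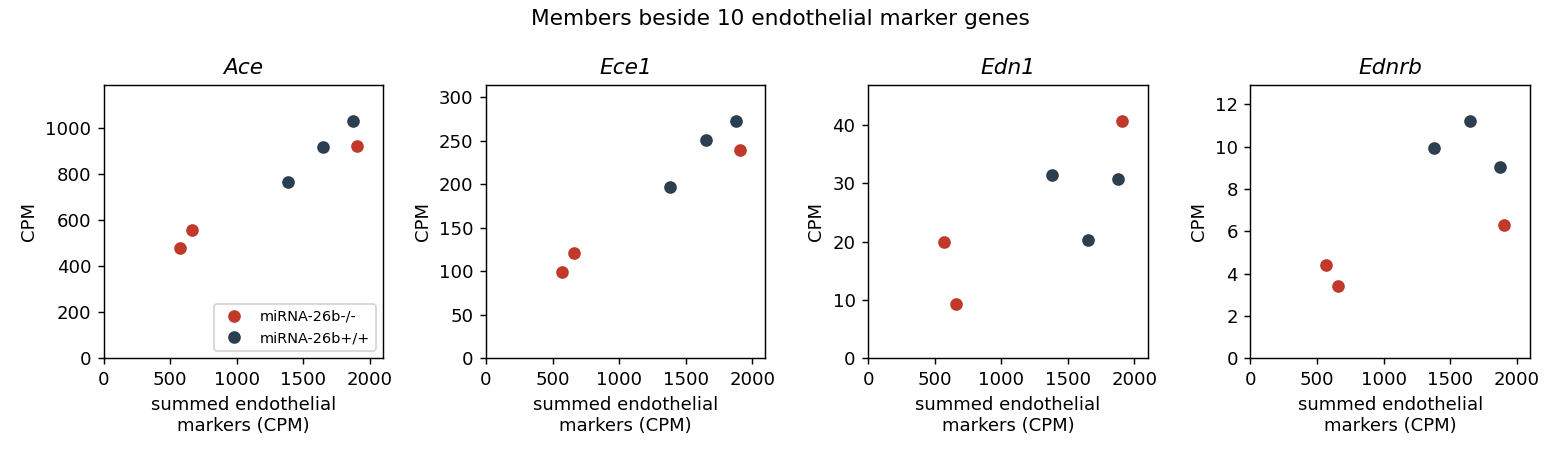
CPM of Ace, Ece1, Edn1 and Ednrb (vertical axes) against the summed CPM of 10 endothelial markers (horizontal axis), 1 point per library. The lowest values of Ace and Ece1 are those of the 2 miRNA-26b-/- libraries with marker sums of 571 and 661 CPM, and the third miRNA-26b-/- library lies beside the miRNA-26b+/+ libraries for both genes but below them for Ednrb.

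Of the endothelin receptors, Ednrb (ENSMUSG00000022122, chr14:103814625-103844402, minus strand) had 4.41, 3.39 and 6.30 CPM in miRNA-26b-/- and 9.95, 9.06 and 11.2 CPM in miRNA-26b+/+ libraries. Every knockout library lies below every wild-type library, replicate 3 included. The means were 4.70 ± 1.48 and 10.1 ± 1.10 CPM (SD, n = 3 each), a ratio of 2.14 in favour of the wild type. Ednrb had a log2 fold change of -1.12 (SE 0.45, edgeR unadjusted p = 0.0262, adjusted p = 0.736), and it ranged from -1.40 to -0.90 when each library was left out in turn, with an unadjusted p under 0.05 in 2 of these 6 fits. Relative to the endothelial sum the ranges of both genotypes overlapped (p = 0.7 by a two-sided exact permutation test), and with that sum as a covariate the log2 fold change was -0.84 (edgeR unadjusted p = 0.136). Ednrb is also a gene of the neural crest lineage. The 10 Schwann cell markers summed to 172 to 308 CPM in the knockout against 41.8 to 114 CPM. Of these, 8 of 10 were higher at an unadjusted p under 0.05 in edgeR's test, beside 3.40% of all genes tested. By the same rule 5 of 9 sympathetic neuron and 5 of 6 skeletal muscle markers were higher. The sympathetic neuron sums overlapped, at 68.7 to 428 CPM in the knockout against 99.3 to 156 CPM. The part of these markers in the Ednrb values was not tested.

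Ednra (ENSMUSG00000031616, chr8:77663031-77724464, minus strand) had 13.2, 11.3 and 18.7 CPM in miRNA-26b-/- and 15.6, 13.2 and 8.43 CPM in miRNA-26b+/+ libraries. The groups overlap throughout, with the highest value in a knockout and the lowest in a wild-type library. Its log2 fold change was 0.20 (SE 0.36, edgeR unadjusted p = 0.582, adjusted p = 0.962). The non-coding gene 4933431K23Rik, on the other strand, shares 91 exon bases with Ednra and had 67 counts in miRNA-26b-/- replicate 3, 27 in miRNA-26b+/+ replicate 3 and 0 in the other 4 libraries.

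The ratio of the receptors within a library does not depend on library size. Per exon length, Ednra stood to Ednrb at 2.32, 2.59 and 2.31 in the knockout and at 1.22, 1.14 and 0.584 in the wild type. The groups did not overlap, and the means were 2.41 ± 0.158 and 0.980 ± 0.345 (SD, n = 3 each, exact permutation test of the log2 ratio, two-sided, p = 0.1, the smallest the design allows). The ratio was thus above 2 in every knockout library and at most 1.22 in the wild type, with log2 fold changes of -1.12 for Ednrb and 0.20 for Ednra behind it. The coding sequences of both receptors are 59.1% identical and share no stretch of 25 bases.

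Of the angiotensin receptors, Agtr1a (ENSMUSG00000049115, chr13:30336441-30382867, plus strand), the main pressor receptor of the mouse, had 3.94, 4.08 and 6.37 CPM in miRNA-26b-/- and 1.96, 2.51 and 0 CPM in miRNA-26b+/+ libraries. Every knockout library lies above every wild-type library. The counts were 101, 137 and 180 against 60, 69 and 0, and the log2 fold change was 1.71 (SE 0.79, edgeR unadjusted p = 0.0455, adjusted p = 0.756). Without the library at 0, miRNA-26b+/+ replicate 3, the difference was 1.10 (edgeR unadjusted p = 0.154). Without miRNA-26b-/- replicate 3 it was 1.46 (edgeR unadjusted p = 0.110). An unadjusted p under 0.05 was reached in 2 of the 6 fits that left out a library.

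Agtr1b (ENSMUSG00000054988, chr3:20314473-20367177, minus strand) received 120, 50 and 1 reads in the knockout and 21, 107 and 238 in the wild type, or 4.68 to 0.0354 CPM and 0.685 to 7.87 CPM. The groups overlapped, the wild type covering nearly the whole range and the knockout its lower part, and the variance of its counts was 62.8 times their mean in the knockout and 97.9 times in the wild type. The log2 fold change was -1.08 (SE 0.92, edgeR unadjusted p = 0.259, adjusted p = 0.897).

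Agtr1a and Agtr1b share 90.8% of their coding bases, 978 of 1077, and 1.53% of the 50-base stretches of Agtr1a also occur in Agtr1b. Agtr1a took 45.7% of the reads of the pair in miRNA-26b-/- replicate 1 (95% exact Clopper-Pearson interval 39.0% to 52.5%), 73.3% in replicate 2 (66.3% to 79.5%) and 99.4% in replicate 3 (97.0% to 99.99%). In miRNA-26b+/+ mice the share was 74.1% in replicate 1 (63.1% to 83.2%), 39.2% in replicate 2 (31.9% to 46.8%) and 0 of 238 reads in replicate 3 (at most 1.54%). These intervals cover counting error only, and the mice of each genotype differ from one another by far more. The shares of both genotypes overlapped (p = 0.3 by a two-sided exact permutation test). Summed, the pair had a log2 fold change of 0.27 (edgeR unadjusted p = 0.608), so the total of type 1 receptor reads was not distinguishable between the genotypes.

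**Figure D4:**
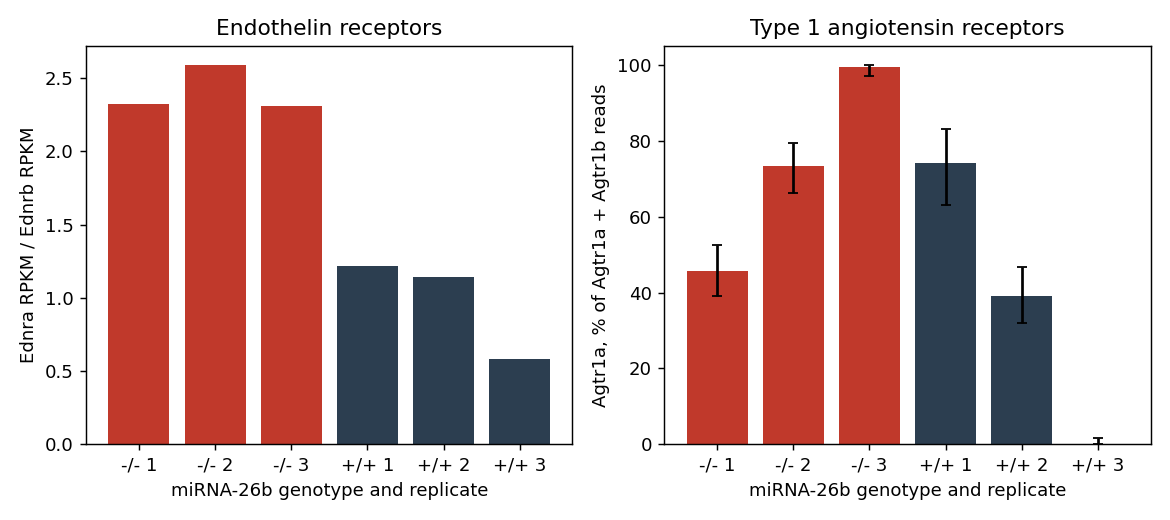
Left, ratio of Ednra to Ednrb RPKM in each library; right, share of Agtr1a in the reads of Agtr1a and Agtr1b with 95% exact binomial intervals. The ratio is at least 2.31 in the miRNA-26b-/- and at most 1.22 in the miRNA-26b+/+ libraries, while the Agtr1a share runs from 45.7% to 99.4% and from 0% to 74.1%.

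Agtr2 (ENSMUSG00000068122, chrX:21484544-21489164, plus strand) had 21 counts in miRNA-26b-/- replicate 2, 20 in miRNA-26b+/+ replicate 2 and 0 in the other 4 libraries. It was at the limit of these libraries in both genotypes, and no difference was detectable at this depth.

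**Figure D5:**
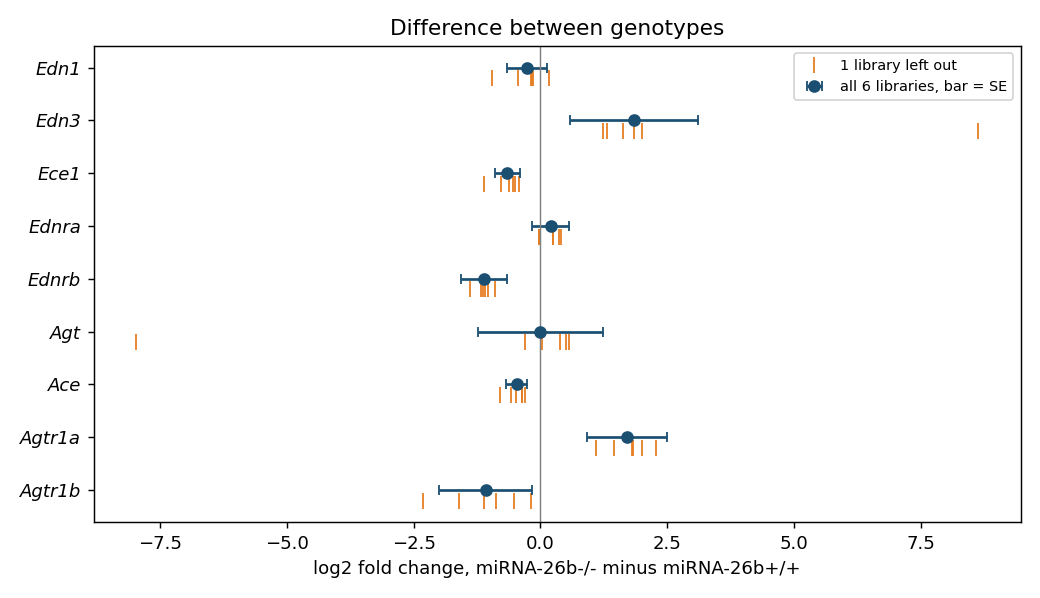
Log2 fold change (miRNA-26b-/- minus miRNA-26b+/+, horizontal axis) of the 9 tested genes with its SE from the fit of all 6 libraries (points and bars), and the values with 1 library left out (ticks). Ece1, Ednrb, Ace and Agtr1b stay below 0 and Edn3 and Agtr1a above it in every fit; the far ticks of Edn3 at 8.64 and of Agt at -7.98 are fits in which 1 group had no count left, so their size depends on the prior count.

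Of the other genes of both systems, 75 were listed and in the table, and 63 were tested. Of these, 0 were higher and 3 were lower in miRNA-26b-/- mice at an unadjusted p under 0.05, and 0 passed after adjustment in edgeR's test. The log2 fold change was below 0 for 42 and above 0 for 21, with a median of -0.13 beside 0.01 for all genes tested.

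Among 8 further endothelin enzymes and ligands, 4 were tested and none was called at an unadjusted p under 0.05. Edn2 had no count in any library, and the mast cell proteases Mcpt4 and Cma1 were the most abundant per length, at 4.44 and 3.52 RPKM. Among 21 further angiotensin enzymes and receptors, 15 were tested and none was called. Cathepsin D (Ctsd), a lysosomal protease, and the prorenin receptor Atp6ap2 led in level, at 399.99 and 29.99 RPKM.

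Of 30 genes of receptor coupling, 29 were tested, with a median log2 fold change of -0.15, 22 below 0 and 7 above. Rgs5, a brake on G proteins in mural cells, and the G protein subunit Gnai2 led in level, at 453 and 115 RPKM. Plcb4, a phospholipase C that signals downstream of Gq, was the one gene called, with 307, 376 and 286 CPM in miRNA-26b-/- and 400, 409 and 454 CPM in miRNA-26b+/+ libraries. The groups did not overlap. Its log2 fold change was -0.38 (SE 0.14, edgeR unadjusted p = 0.0180, adjusted p = 0.736). Without miRNA-26b-/- replicate 3 it was -0.30 (edgeR unadjusted p = 0.0550), and without miRNA-26b+/+ replicate 3 it was -0.33 (edgeR unadjusted p = 0.0626).

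Of 20 genes known to respond to endothelin or angiotensin II in vessels, 19 were tested, with a median log2 fold change of -0.15, and 2 were called, both lower. Vcam1, an adhesion molecule for leukocytes, had 29.7, 34.9 and 96.6 CPM in miRNA-26b-/- and 113, 134 and 93.5 CPM in miRNA-26b+/+ libraries. Replicate 3 of the knockout lies within the wild-type range, and the log2 fold change was -1.08 (SE 0.32, edgeR unadjusted p = 0.00469, adjusted p = 0.734). Without that replicate it was -1.80 (edgeR adjusted p = 0.000502), and with the endothelial sum as a covariate -0.47 (unadjusted p = 0.0406). Vcam1 reached an unadjusted p under 0.05 in all 6 fits that left out a library, but not with robust shrinkage (edgeR unadjusted p = 0.0601). Fn1, the matrix protein fibronectin, had 4624, 4263 and 5619 CPM against 5342, 6606 and 6668 CPM. Its groups overlap in one library each, and its log2 fold change was -0.36 (SE 0.14, edgeR unadjusted p = 0.0186, adjusted p = 0.736). With the endothelial sum as a covariate it was -0.17 (edgeR unadjusted p = 0.234), and it reached an unadjusted p under 0.05 in 2 of the 6 fits that left out a library. Ccn2, a growth factor of the matrix, led this list in level with 1209 RPKM, ahead of Fn1 with 472 RPKM.

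For each tested gene, the genes most like it over the 6 libraries were sought among 11676 genes with a mean of at least 5 CPM, by Pearson r of log2(CPM + 0.5). The values of r rest on 6 points and are a description. Ece1 was closest to Krt80 (r = 0.999) and Ace (0.997), and Ace to Ece1 (0.997) and Krt80 (0.996). No other member had a member among its closest 2. Edn1 was closest to Zfp3 (0.999) and Camsap2 (0.996), and Edn3 to 4930592A05Rik (0.999) and Arhgap18 (0.992). Ednra was closest to Cep170 (0.996) and Pip4k2a (0.983), and Ednrb to Asb1 (0.992) and Med14 (0.989). Agt was closest to Bcap29 (0.997) and Gramd1b (0.965), Agtr1a to Mvp and Rmdn1 (0.994 each), and Agtr1b to Alg1 and Capn1 (0.985 each). Between members, r ranged from -0.831 for Ednra with Agtr1b to 0.997 for Ece1 with Ace.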

How the data were processed

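RNA of 6 mouse aortas was compared, 3 per genotype, with the genotypes taken from the labels of the samples. Per the labels and the methods, the authors sequenced total RNA made into Illumina TruSeq libraries, aligned reads with STAR to mm10 (GRCm38) and counted them with featureCounts 1.6.4. The deposited file holds these raw counts per gene name over exons of GENCODE M21 per the file headers, while the methods name another release. Reads were counted without strand, and a read over several genes was counted for each, so antisense genes share reads. A second deposited file holds log counts and the authors' fold changes and p-values and was not used.

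Genes were kept (16017 of 55341) where their counts summed to 2 or more and CPM was over 1 in at least 2 libraries. They were scaled by TMM factors and tested by quasi-likelihood in edgeR 4.0.16 (R 4.3.3, prior count 0.125), with Benjamini-Hochberg adjustment over all genes tested. CPM use TMM-scaled library sizes. Ratios were tested with exact permutation tests in SciPy 1.17.1. The test was checked on simulated counts. Genes named were the 10 members, genes overlapping their exons, pathway genes with an unadjusted p under 0.05, the 2 most abundant of each pathway list and the 2 genes most like each member. Edn2 and the sums of marker genes were given in addition, and 1 gene of the lists is not reported here. The members, the lists and the tests were chosen with earlier results of these data known. Ctgf of the lists is Ccn2 in the table.

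Alternatives were library size, upper quartile and DESeq2 size factors, DESeq2 1.42.0, limma 3.58.1 voom, a likelihood ratio test, robust shrinkage, the earlier quasi-likelihood method, other filters, a prior count of 2, subtraction of the antisense counts from Edn1, the type 1 receptors summed and leaving out each library. Subtraction of the antisense counts from Ace and the endothelial marker sum as a covariate were added after seeing the data. Each library is a separate mouse, and p-values measure the spread between the mice. Reads carry no molecular identifiers, so counting intervals understate the error.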

Additional observations from a re-analysis of the deposited data

How the results depend on the processing

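Among the normalizations, tests and filters tried with all 6 libraries, the number of the 9 genes at an unadjusted p under 0.05, which was 4, became 3 with DESeq2 and limma voom (Agtr1a lost, DESeq2 unadjusted p = 0.159 and limma unadjusted p = 0.0544), then 2 under edgeR's likelihood ratio test and the earlier quasi-likelihood method (Ace and Agtr1a lost, the latter at edgeR unadjusted p = 0.184 and edgeR unadjusted p = 0.221) and with robust shrinkage (Ece1 and Ace lost). It became 1, Agtr1a, with the endothelial marker sum as a covariate. The number of other pathway genes, which was 3, became 2 under the likelihood ratio test and 4 with library size alone and with DESeq2. It became 6 with limma voom and 8 with that covariate. Of all 16017 genes tested, 795, 1040, 840, 847 and 1158 were called in these fits, in that order, beside 1036 in the main fit. The earlier quasi-likelihood method called 802 and robust shrinkage 1014. At an adjusted p under 0.05 the main fit called 1 of all genes, DESeq2 57 and the likelihood ratio test 19. Limma voom and robust shrinkage called 3 each, and the earlier quasi-likelihood method 0. None of the 9 genes was among them. Leaving out 1 library at a time gave 686 to 1692 genes of all tested, 0 to 4 of the 9 genes at an unadjusted and 0 to 2 at an adjusted p under 0.05, and 3 to 10 other pathway genes. The extremes over all genes came without miRNA-26b+/+ replicate 3 (686) and without miRNA-26b-/- replicate 3 (1692). The sign turned for Edn1 with the covariate (0.28) and over the left-out libraries (-0.96 to 0.16), and for Ednra over the left-out libraries (-0.033 to 0.41). It turned for Agt, whose difference was near 0, with library size alone (0.012), DESeq2 size factors (0.0035), no CPM filter (0.0040) and left-out libraries (-7.98 to 0.56). The cause was not tested. Ece1, Ednrb and Ace kept a negative and Agtr1a a positive sign in every alternative tried. No paired analysis was possible because the replicate numbers follow the order of the samples and pair no mice. Agtr2, Agt, Edn3 and both type 1 receptors had low counts, each with libraries at 0 or 1 count. The spread of the Agtr1b counts exceeded counting error, with a variance of 62.8 times the mean in the knockout and 97.9 times in the wild type. The source of that spread was not tested.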
